A study of Mus musculus with 4 samples.

Results

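The mitochondrially encoded genes are the 37 genes that the mouse carries on its own small mitochondrial chromosome. They were taken as the gene rows of the deposited tables whose symbol begins with mt-, which gave 37 of 54838 Ensembl genes. Of these, 13 are protein genes, 2 are ribosomal RNA genes and 22 are transfer RNA genes. No measured value entered that choice.

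The study set Hepa1-6, a line grown from a mouse liver tumour (hepatocellular carcinoma), with an shRNA against Setdb1 (shSet) beside the same line with a control shRNA (shNC). The labels give the genotype of the shSet cells as Setdb1 knockdown and that of the shNC cells as Setdb1 wild type. Each group has 2 libraries of total RNA, and the series' design text speaks of subclones. Whether each library had its own culture is not stated, so p-values reflect library-to-library spread alone, possibly technical. Setdb1, a histone H3 lysine 9 methyltransferase, stood at 10.96 and 8.58 CPM (counts per 1000000 counts of the library) in the shSet libraries, against 51.2 and 59.4 CPM in the shNC libraries. It fell by 2.49 on the log2 scale (SE 0.18, adjusted p = 0.00015). Every library holds between 19513567 and 19615440 counts. The hepatoma markers of the labelled line were present in part. Alb lay between 602 and 1236 CPM and Krt18 between 1087 and 1528 CPM, while Apoa1 and Ttr stayed at or under 0.357 CPM in all 4 libraries. Acta2 and Myog, markers of smooth and skeletal muscle, had no counts, and the summed markers of other cell types came to 60.9 and 62.2 CPM in shSet and 67.04 and 66.0 CPM in shNC cells. Most of that sum was Sox9, with 43.5 and 46.7 CPM in shSet and 59.2 and 58.4 CPM in shNC cells. The other markers of that list with enough counts to test, Cd68, Pecam1, Col1a1 and Krt19, went the other way. Each was higher in both shSet libraries. The library shNC 2 stood apart. Its mean fragment, as implied by the effective lengths in the tables, was 247 bases, against 265 and 263 bases in shSet 1 and 2 and 261 bases in shNC 1. The nuclear RNA Malat1 was highest there too, with 31.2 and 43.03 CPM in shSet 1 and 2, and 40.8 and 70.7 CPM in shNC 1 and 2. Neat1, also a nuclear RNA, was lowest there, with 17.4 and 15.9 CPM in shSet 1 and 2, and 14.4 and 12.6 CPM in shNC 1 and 2.

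Mitochondrial DNA is transcribed along its whole length on both strands by Polrmt, with Tfam and Tfb2m at the promoters, into long precursors that are cut mainly at the tRNAs lying between the other genes. The heavy strand carries both rRNAs, most tRNAs and all protein genes except mt-Nd6, which lies on the light strand. The proteins are subunits of complexes I, III and IV and of the ATP synthase, all made on mitochondrial ribosomes. Hepatocytes rely on them for oxidative phosphorylation. Pieces of mitochondrial DNA have also entered the nuclear chromosomes during evolution, and reads from such a copy and from the mitochondrial gene can be the same sequence.

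Such a copy bears on many of the values that follow. On chromosome 1, minus strand, 7 annotated pseudogenes lie side by side at chr1:24611535-24616197 (GRCm38, GENCODE M21), a stretch of 4663 bases. They match genes within chrM:6390-11042, a stretch of 4653 bases. Over the full 681 bases of the copy Gm28661, no base differs from mt-Co2 (chrM:7013-7696). mt-Co2 is 3 bases longer, and these are its stop codon, which the annotated copy lacks. The last bases of each pair are given below, with the bases that only the mitochondrial gene model holds in capitals.
mt-Co2, chrM:7637-7696, plus strand: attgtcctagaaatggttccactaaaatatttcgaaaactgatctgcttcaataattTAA
Gm28661, chr1:24614885-24614941, minus strand: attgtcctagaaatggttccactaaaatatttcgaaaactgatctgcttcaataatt
mt-Atp6, chrM:8548-8607, plus strand: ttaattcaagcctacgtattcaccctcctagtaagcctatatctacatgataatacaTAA
Gm10925, chr1:24613974-24614030, minus strand: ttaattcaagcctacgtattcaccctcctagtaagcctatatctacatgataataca
mt-Co3, chrM:9331-9390, plus strand: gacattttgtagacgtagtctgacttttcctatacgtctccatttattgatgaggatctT
Gm28437, chr1:24613189-24613247, minus strand: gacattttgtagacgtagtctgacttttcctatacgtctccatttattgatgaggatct

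The pair mt-Nd3 and Gm28438 differs by 1 base near the start, T3C, with positions counted from 1 at the first base of mt-Nd3 and the mitochondrial base given first. mt-Co1 and Gm29216, which matches only positions 1063 to 1545 of mt-Co1, differ by A1066T, with positions counted from the first base of mt-Co1. The differing base is in capitals.
mt-Nd3, chrM:9459-9491, plus strand: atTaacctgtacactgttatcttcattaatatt
Gm28438, chr1:24613087-24613119, minus strand: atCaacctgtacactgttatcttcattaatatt
mt-Co1, chrM:6390-6423, plus strand: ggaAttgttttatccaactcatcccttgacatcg
Gm29216, chr1:24616155-24616188, minus strand: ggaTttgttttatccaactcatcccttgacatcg

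The deposited tables divide the reads of each such pair by an estimate. Of 15 nuclear copies in the tables that match a mitochondrial gene over at least 80% of their length at 90% identity or more, 6 had at least 10 counts in any library, and all 6 lie in the chromosome 1 stretch. Gm28661 took 98.9% and 99.4% of the reads of its pair with mt-Co2 in shSet 1 and 2, and 99.0% and 98.8% in shNC 1 and 2. Gm28437 took between 96.3% and 96.8% of the pair with mt-Co3, and Gm10925 between 85.9% and 92.7% of the pair with mt-Atp6. The split was closer to even for mt-Nd3, where Gm28438 took 49.8% to 60.9%, and for mt-Nd4l, where Gm10222 took 59.4% to 72.8%. Gm29216 took 5.88% to 8.16% of the pair with mt-Co1. The opposite held for mt-Nd4: its copy Gm28439, identical over 876 bases, had a count of 0 in all 4 libraries. The 6 mitochondrial genes with such shared reads had fractional counts in every library, the 7 other protein genes had whole counts, and all 24 sums of a gene and its copies came out whole within 0.01 counts. Which of the chromosomes the reads came from cannot be told apart in these tables, so the values below are given for the mt- row and, where it matters, for the row summed with its copies.

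**Figure D1:**
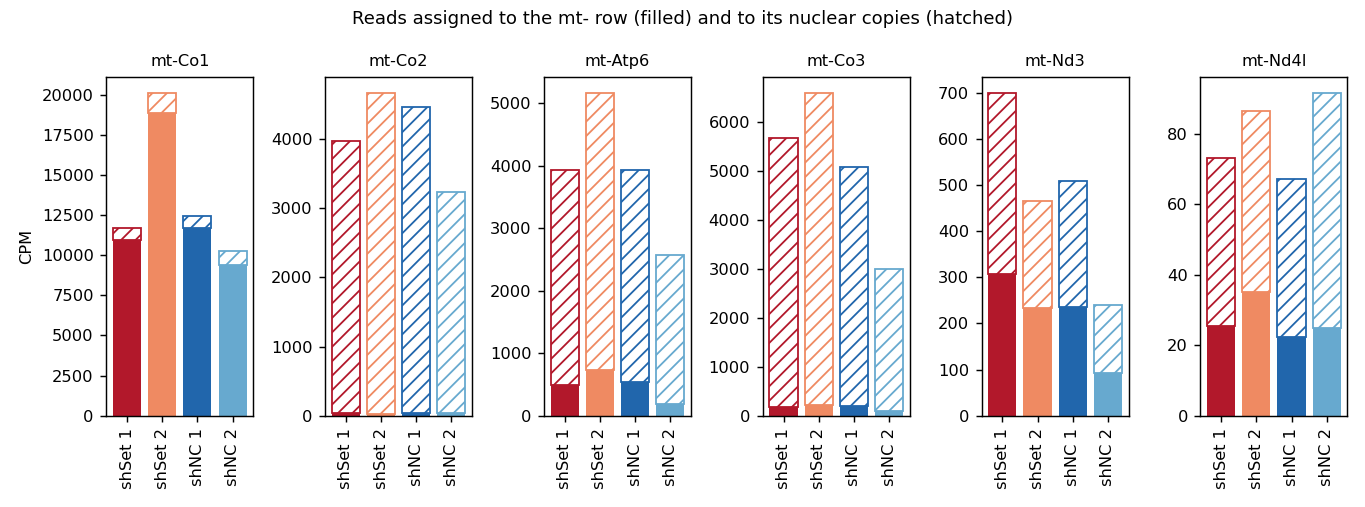
CPM in each library for the 6 genes that share reads with the chromosome 1 copies. The filled part of each bar is the mt- row and the hatched part its nuclear copies, with a separate axis per gene. For mt-Co2 and mt-Co3 nearly the whole bar is hatched, for mt-Co1 nearly the whole bar is filled.

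The levels of the mitochondrially encoded RNAs in shSet cells leaned higher than in shNC cells, but none of them passed the test. All 15 rRNA and protein genes passed the filter on low counts, each with at least 22.5 CPM in every library, so none entered through a single group. Of these, 13 had a log2 fold change above 0 and 2 below, with a median of 0.43 and a range from -0.26 to 0.75. Over all 12821 genes tested the median was -0.0052 and 49.5% lay above 0. With edgeR's quasi-likelihood test adjusted over all genes, 0 of 15 were called, where 5.96% of all genes were (4.2% higher and 1.76% lower in shSet). The smallest adjusted p was 0.142, 3 of 15 had an unadjusted p under 0.05, and 21.3% of all genes did. DESeq2 also called 0 of 15, with a smallest adjusted p of 0.0882 and 5 of 15 at an unadjusted p under 0.05, where it called 6.99% of all genes with an adjusted p and put 17.6% under the unadjusted one. In bulk RNA, more mitochondrial RNA per cell and more cells rich in it cannot be told apart.

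**Figure D2:**
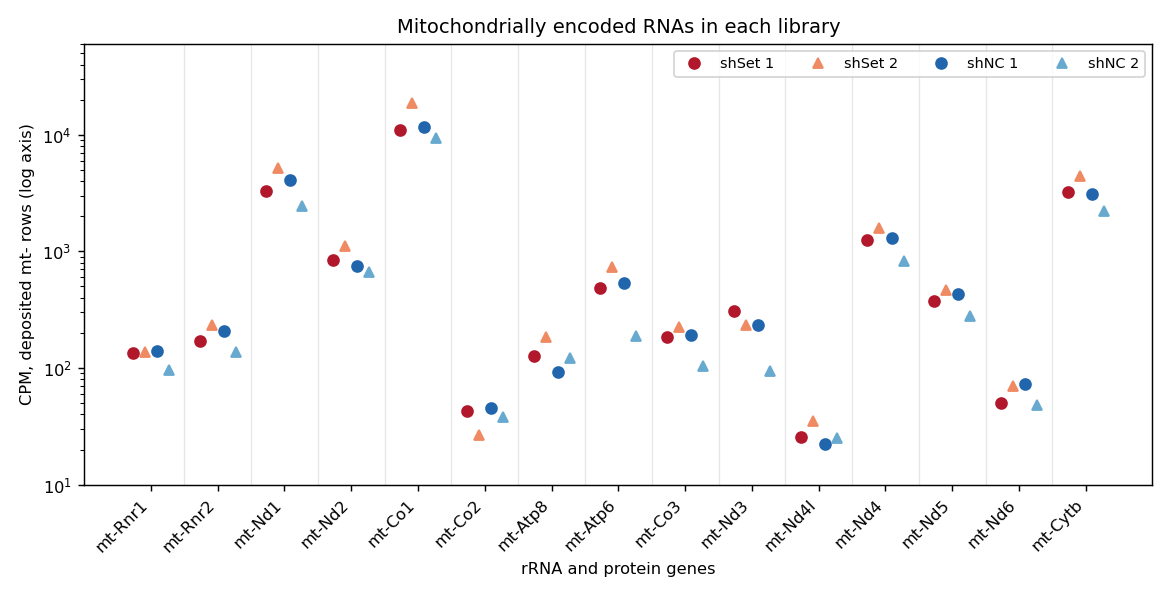
CPM of the deposited mt- rows in each library on a log axis, for the 2 rRNA and 13 protein genes in their order along the chromosome. shSet 2 is the highest point for 11 genes and shNC 2 the lowest for 12.

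The ribosomal RNAs form the cores of the small and large mitochondrial ribosomal subunits. mt-Rnr1, the small subunit rRNA (chrM:70-1024), had 134 and 138 CPM in shSet libraries, against 141 and 96.8 CPM in shNC libraries. The groups overlapped, with shNC 1 the highest and shNC 2 the lowest. mt-Rnr2, the large subunit rRNA (chrM:1094-2675), had 170 and 235 CPM in shSet libraries, against 208 and 138 CPM in shNC libraries. Here too the shNC libraries stood on either side of shSet 1. The log2 fold changes were 0.20 for mt-Rnr1 (95% interval -0.20 to 0.61, adjusted p = 0.573) and 0.24 for mt-Rnr2 (-0.25 to 0.73, adjusted p = 0.581). The ratio of mt-Rnr2 to mt-Rnr1 counts was 1.27 and 1.71 in shSet libraries and 1.47 and 1.42 in shNC libraries, so it varied more within shSet than between the groups. Both rRNAs together made up 0.0305% and 0.0372% of all counts in shSet and 0.0349% and 0.0235% in shNC libraries.

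Complex I, the NADH dehydrogenase, takes 7 of its subunits from mitochondrial DNA, and 0 of the 7 were called. mt-Nd2, a membrane-arm subunit, had 839 and 1121 CPM in shSet libraries, against 755 and 667 CPM in shNC libraries. Both shSet libraries lay above both shNC libraries, which was so for 25.4% of all genes. Its log2 fold change of 0.48 (95% interval 0.09 to 0.86) missed the threshold after adjustment (adjusted p = 0.144). mt-Nd1 had 3314 and 5199 CPM in shSet and 4067 and 2434 CPM in shNC libraries, with a log2 fold change of 0.40 (95% interval -0.23 to 1.03). mt-Nd4 had 1251 and 1601 CPM in shSet and 1306 and 830 CPM in shNC libraries, and mt-Nd5 had 376 and 465 CPM in shSet and 434 and 276 CPM in shNC libraries. In these 3 subunits, shNC 1 stood between the shSet libraries and shNC 2 was lowest.

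The short complex I genes mt-Nd3 and mt-Nd4l share their reads with the chromosome 1 copies. The mt-Nd3 row had 308 and 234 CPM in shSet libraries, against 235 and 93.5 CPM in shNC libraries. Summed with Gm28438 it had 699 and 465 CPM in shSet, against 507 and 239 CPM in shNC libraries. shSet 1 was highest and shNC 2 lowest either way, and shSet 2 lay under shNC 1, by a small margin in the row. The log2 fold change was 0.73 (SE 0.34, adjusted p = 0.259) for the row and 0.65 (SE 0.31, adjusted p = 0.269) for the sum. The mt-Nd4l row had 25.5 and 35.1 CPM in shSet libraries, against 22.5 and 24.9 CPM in shNC libraries, which did not overlap. Summed with Gm10222 it had 73.1 and 86.5 CPM in shSet, against 67.2 and 91.6 CPM in shNC libraries. The groups then overlapped, with shNC 2 the highest in CPM, and the log2 fold change was 0.0244 (95% interval -0.36 to 0.41) in place of 0.37. In TPM, which divides counts by effective length, the sums were 1655 and 1928 in shSet, against 1520.5 and 1814 in shNC libraries. They still overlapped, but shSet 2 was the highest. The 297 bases of mt-Nd4l and the 348 bases of mt-Nd3 are close to the fragment length, and mt-Nd4l also shares 7 bases with mt-Nd4.

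mt-Nd6, the complex I subunit on the light strand (ENSMUSG00000064368, chrM:13552-14070), was the member closest to no difference. It had 50.01 and 70.0 CPM in shSet libraries, against 73.1 and 48.4 CPM in shNC libraries, fully overlapping. Its log2 fold change was -0.0065 (95% interval -0.51 to 0.50, adjusted p = 0.992). Set against the heavy-strand genes of the same library, however, mt-Nd6 was lower in both shSet libraries. It held 0.142% of the summed counts of the 13 protein genes and their copies in shSet 1 (exact 95% binomial interval 0.133% to 0.151%) and 0.139% in shSet 2 (0.132% to 0.147%). In shNC 1 it held 0.201% (0.191% to 0.212%) and in shNC 2 it held 0.186% (0.175% to 0.199%). These shares rest on 981 and 1369 mt-Nd6 counts in shSet and 1433 and 945 in shNC libraries, and the intervals cover counting error only. Relative to the 12 heavy-strand protein genes, the log2 ratio of shSet over shNC group means was -0.60 in TPM (a measure that divides counts by effective length). It was -0.48 in TPM with the short mt-Atp8 left out, -0.47 in counts and -0.46 in counts with the copies. The ratio is a description and was not tested. In CPM, both shSet libraries lay below both shNC libraries for 26.5% of all genes. Among the shares in counts with copies, that of mt-Co2 was also lower in both shSet libraries and that of mt-Cytb higher. The shares of the other protein genes overlapped. The last 14 bases of mt-Nd6 face mt-Nd5 on the opposite strand (chrM:13552-13565), and whether counting used the strand is not given in the sources used here, so reads from the opposite strand cannot be told apart. mt-Nd6 also has another base make-up, with 28.1% G and 5.97% C against 5.88% to 16.1% G in the other protein genes, and the part of base make-up in this difference was not tested.

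Complex III holds a single mitochondrially encoded subunit, cytochrome b. mt-Cytb had 3246 and 4460 CPM in shSet libraries, against 3130 and 2217 CPM in shNC libraries. The groups did not overlap, though shSet 1 lay only just above shNC 1. Its log2 fold change was 0.54 (95% interval 0.04 to 1.04, adjusted p = 0.2). No copy of mt-Cytb had a count in these libraries, so its value does not depend on the split of reads.

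Complex IV, cytochrome c oxidase, has its 3 catalytic-core subunits on mitochondrial DNA. mt-Co1, which carries the oxygen-reducing site, had 10957 and 18885 CPM in shSet libraries, against 11691 and 9406 CPM in shNC libraries. It alone held 50.9% and 56.2% of the counts of all mt- rows in shSet and 51.0% and 56.4% in shNC libraries, so its share differed more within each group than between the group means. Its log2 fold change was 0.51 (95% interval -0.09 to 1.12, adjusted p = 0.313).

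mt-Co2, which takes electrons from cytochrome c (ENSMUSG00000064354), looked scarce in its own row, with 42.4 and 26.5 CPM in shSet libraries against 45.002 and 38.3 CPM in shNC libraries. Summed with Gm28661 it had 3982 and 4666 CPM in shSet libraries, against 4473 and 3232 CPM in shNC libraries. The sign of the difference turned with the sum: the log2 fold change was -0.26 for the row (95% interval -0.75 to 0.23) and 0.18 for the sum (95% interval -0.27 to 0.63). Within the summed protein genes, mt-Co2 with its copies held 11.3% and 9.30% of counts in shSet, against 12.3% and 12.4% in shNC libraries. That share was lower in both shSet libraries, in TPM as well, and was not tested. For 26.5% of all genes, both shSet libraries lay below both shNC libraries in CPM.

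mt-Co3, the third core subunit, had 183 and 223 CPM in its row in shSet libraries, against 190 and 105 CPM in shNC libraries. Summed with Gm28437 it had 5665 and 6589 CPM in shSet libraries, against 5087 and 3003 CPM in shNC libraries. The row overlapped between the groups and the sum did not. The log2 fold change was 0.47 (adjusted p = 0.315) for the row and 0.61 (95% interval 0.06 to 1.16, adjusted p = 0.192) for the sum.

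The ATP synthase takes its subunits a and 8 from the overlapping genes mt-Atp6 and mt-Atp8, which share 43 bases. No annotated copy of mt-Atp8 was found, although the gene (chrM:7766-7969) lies within chrM:6390-11042, the span of the chromosome 1 copies. Whether its reads also match unannotated bases between those copies was not tested. The end of mt-Atp8 is given with the part it shares with mt-Atp6 in capitals.
mt-Atp8, chrM:7910-7969, plus strand: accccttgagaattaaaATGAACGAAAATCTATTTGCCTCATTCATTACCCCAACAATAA
The mt-Atp6 row had 484 and 730 CPM in shSet libraries, against 537 and 188 CPM in shNC libraries, and its log2 fold change of 0.75 was the highest of the 15 with all libraries in the fit (95% interval -0.13 to 1.64, adjusted p = 0.312). It rested on the shNC libraries, at 1.72 without shNC 1 (adjusted p = 7.53e-06) and 0.18 without shNC 2 (adjusted p = 0.725), and was 1.02 without shSet 1 and 0.42 without shSet 2. Summed with Gm10925 it had 3930 and 5163 CPM in shSet libraries, against 3932 and 2575 CPM in shNC libraries, with a log2 fold change of 0.49 (95% interval -0.03 to 1.02). shSet 1 and shNC 1 were then nearly equal, and shNC 2 was lowest. mt-Atp8 had 127 and 185 CPM in shSet libraries, against 92.5 and 122 CPM in shNC libraries, with no overlap. Its log2 fold change was 0.56 (95% interval 0.11 to 1.005) and its adjusted p of 0.142 the smallest among the 15. The 204 bases of mt-Atp8 are shorter than the mean fragment. They leave an effective length of 7 and 7.02 bases in shSet and 7.23 and 10.4 bases in shNC libraries. The part of fragment length in its counts was not tested.

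**Figure D3:**
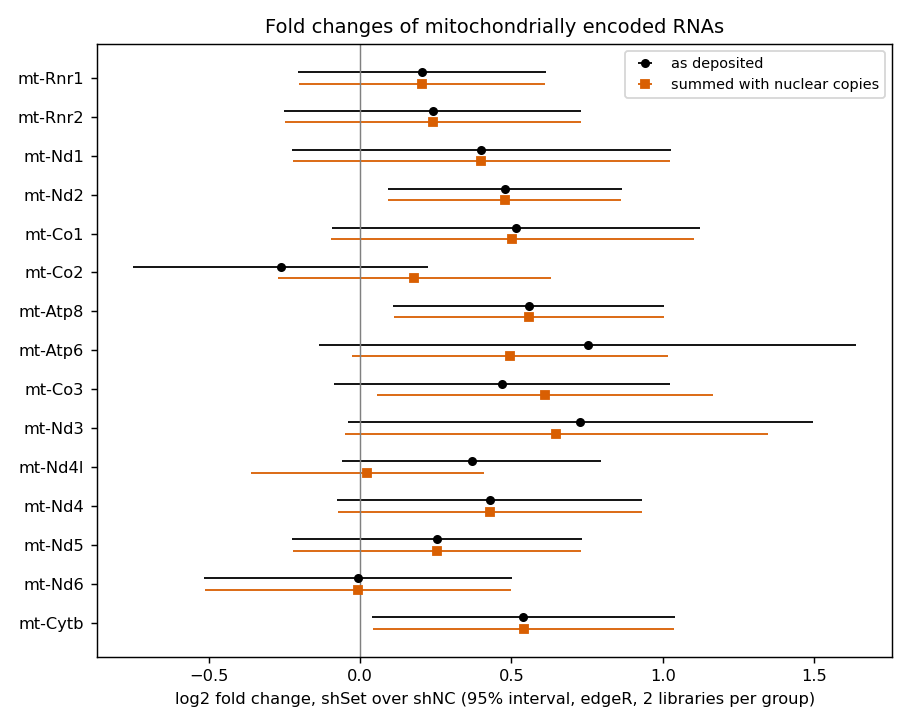
Log2 fold change of shSet over shNC with its 95% interval from edgeR for the 15 tested genes, as deposited (circles) and summed with nuclear copies (squares). The intervals of mt-Nd2, mt-Atp8 and mt-Cytb lie above 0 both ways, that of mt-Co3 only in the sum, and mt-Co2 changes side.

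The summed counts made little difference to the group as a whole. With copies added, 14 of 15 fold changes lay above 0, the median stayed at 0.43, 4 of 15 had an unadjusted p under 0.05 and again 0 were called. In both forms 4 of 15 had both shSet libraries above both shNC libraries and 0 had both below, where 25.4% and 26.5% of all genes did. These 4 were mt-Nd2, mt-Atp8, mt-Nd4l and mt-Cytb in the rows, and mt-Nd2, mt-Atp8, mt-Co3 and mt-Cytb in the sums.

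The spread within each group was as wide as the difference between groups. The median gene stood 0.46 higher in shSet 2 than in shSet 1 on the log2 CPM scale, and 0.59 higher in shNC 1 than in shNC 2. shSet 1 exceeded shNC 2 in 15 of 15 genes but shNC 1 in only 5, with a median difference of -0.070 against shNC 1. shSet 2 exceeded shNC 2 in 14 and shNC 1 in 11. Leaving out 1 library changed the calls, with 2 libraries of the other group carrying the spread. Without shNC 1 the median was 0.63 and 9 of 15 were called (12.6% of all genes were). Without shNC 2 the median was 0.13 and only mt-Atp8 was called (6.78% of all genes). Without shSet 1 the median was 0.60 and 4 of 15 were called, mt-Nd2, mt-Atp8, mt-Atp6 and mt-Co3 (7.86% of all genes). Without shSet 2 the median was 0.18 and only mt-Nd3 was called (5.61% of all genes). The mt-Nd3 row moved most after mt-Atp6, with 1.56 without shNC 1 and 0.20 without shNC 2. The values of shNC 2 went with its shorter fragments, higher Malat1 and lower Neat1, whose part was not tested.

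As a share of all counts, the mt- rows and their copies together made up 3.56% and 5.05% in shSet libraries, against 3.67% and 2.62% in shNC libraries. The means were 4.31% ± 1.06 in shSet and 3.15% ± 0.741 in shNC (SD, n = 2 each), a log2 ratio of 0.45 with overlapping groups. The shNC 1 library lay between shSet 1 and shSet 2. The nuclear copies alone took 1.41% and 1.69% of all counts in shSet libraries and 1.38% and 0.953% in shNC libraries, which did not overlap. They held 39.6% and 33.5% of the joint reads in shSet and 37.5% and 36.3% in shNC libraries. In TPM, the mt- rows summed to 5.31% and 7.71% in shSet, against 4.90% and 3.72% in shNC libraries, without overlap. That rests on mt-Atp8, whose 204 bases are shorter than the mean fragment and leave an effective length of 7 and 7.02 bases in shSet and 7.23 and 10.4 bases in shNC libraries. Without mt-Atp8 the TPM shares were 3.10% and 4.46% in shSet and 3.29% and 2.21% in shNC libraries, and overlapped.

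**Figure D4:**
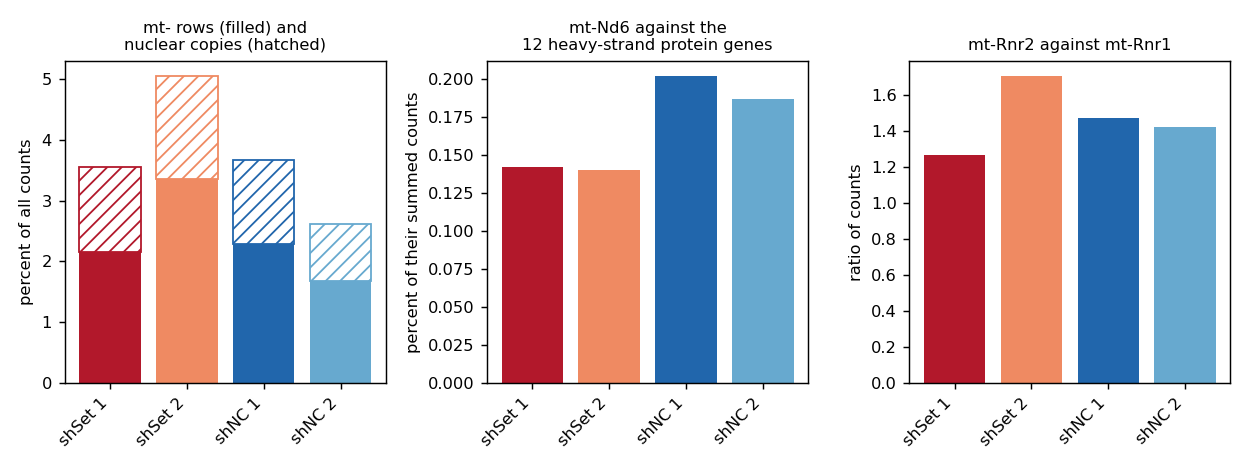
Per library: left, the percent of all counts in mt- rows (filled) and nuclear copies (hatched); middle, mt-Nd6 as percent of the summed counts of the 12 heavy-strand protein genes with their copies; right, the ratio of mt-Rnr2 to mt-Rnr1 counts. The total in shNC 1 lies between the shSet libraries, whereas mt-Nd6 relative to the heavy-strand genes is at 0.142% and 0.140% in shSet, below 0.202% and 0.187% in shNC.

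Among the protein genes, the make-up by complex overlapped between the groups for 3 of the 4 complexes in counts with copies. Complex I genes held 18.7% and 17.96% of the protein-gene counts in shSet and 19.8% and 17.7% in shNC libraries. Complex IV genes held 60.6% and 62.5% in shSet and 60.5% and 63.4% in shNC libraries, and the ATP synthase pair held 11.5% and 10.7% in shSet and 11.1% and 10.4% in shNC libraries. mt-Cytb, for complex III, held 9.20% and 8.89% in shSet, above 8.61% and 8.53% in shNC libraries, but in TPM with copies its share overlapped. In TPM with copies, complex IV genes held 40.5% and 41.6% in shSet, below 44.5% and 44.8% in shNC libraries, and the ATP synthase pair held 34.5% and 36.997% in shSet, above 30.3% and 33.5% in shNC libraries. With mt-Atp8 and its short effective length left out, these TPM shares were 52.4% and 55.7% in shSet and 53.9% and 57.6% in shNC libraries for complex IV, and 15.4% and 15.8% in shSet and 15.5% and 14.5% in shNC libraries for mt-Atp6. Both then overlapped. The rRNAs came to 0.867% and 0.745% of the protein-gene counts with copies, mt-Atp8 left out, in shSet and 0.963% and 0.907% in shNC libraries, lower in both shSet libraries. In the rows without copies these rRNA shares of counts overlapped.

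Levels can be set against each other only per length, in TPM with copies. In shSet libraries the means were 14452 ± 1519 TPM for mt-Co3, 13422 ± 2545 for mt-Atp6 and 12686 ± 1391 for mt-Co2 (SD, n = 2 each). In shNC libraries they were 9725 ± 3605 TPM for mt-Co3, 9752 ± 2982 for mt-Atp6 and 11470 ± 2740 for mt-Co2. Within libraries, mt-Co3 stood above mt-Co2 in shSet 1 and 2 (13378 and 15526 TPM against 11703 and 13670 TPM). It stood below mt-Co2 in shNC 1 and 2 (12274 and 7176 TPM against 13408 and 9533 TPM). This order was not tested. mt-Co1 averaged 19521 ± 6998 TPM in shSet and 14543 ± 1271 TPM in shNC libraries, but its copy spans only part of the gene and the sum overstates a per-length level. The 3 shortest genes, mt-Atp8, mt-Nd4l and mt-Nd3, are left out of this order, since their effective lengths are a small part of their lengths. Below these came mt-Nd1 with 7524 ± 2353 TPM in shSet and 5878 ± 2100 TPM in shNC libraries, and mt-Cytb with 5366 ± 1195 TPM in shSet and 3818 ± 919 TPM in shNC libraries. mt-Nd4 had 1569 ± 273 TPM in shSet and 1207 ± 376 TPM in shNC libraries, and mt-Nd2 had 1552 ± 316 TPM in shSet and 1152 ± 102 TPM in shNC libraries, within the spread of mt-Nd4. mt-Nd5 (331 ± 49.5 TPM in shSet, 287 ± 88.5 TPM in shNC) and mt-Nd6 (286 ± 66.1 TPM in shSet, 291 ± 90.7 TPM in shNC) were the lowest of the protein genes and did not differ beyond their spread. The means of the rRNAs were lower still, that of mt-Rnr1 within the spread of mt-Nd6 but under mt-Nd5 in all 4 libraries. mt-Rnr1 stood at 241 ± 3.77 TPM in shSet and 216 ± 57.3 TPM in shNC, and mt-Rnr2 at 188 ± 42.5 TPM in shSet and 165 ± 46.8 TPM in shNC libraries. Whether poly(A) selection or rRNA removal was used is not stated in the sources used here. The place of the rRNAs in this order therefore describes the libraries and not the cells.

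The 22 tRNA genes, which supply the mitochondrial ribosomes with amino acids, had a count of 0 in all 4 libraries. Their rows are 59 to 75 bases long, far under the fragments of these libraries, and the tables give them an effective length of 0. Across the tables, 6279 genes had an effective length of 0 in every library and none of these had a count. The zeros therefore set no limit on the tRNAs, 14 on the heavy strand and 8 on the light strand. The shortest and the longest show the scale.
mt-Ts2 (serine), chrM:11613-11671, plus strand: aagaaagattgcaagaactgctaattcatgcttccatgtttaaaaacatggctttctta
mt-Tl1 (leucine), chrM:2676-2750, plus strand: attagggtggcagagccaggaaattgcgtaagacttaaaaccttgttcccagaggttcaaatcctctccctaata

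The nuclear genes that transcribe, process and translate mitochondrial DNA did not pass the test in any of the lists examined, with 0 of 113 called in either direction where 5.96% of all genes were. Of 10 transcription genes 0 were called, with a median log2 fold change of 0.13. Polrmt, the mitochondrial RNA polymerase, had 28.9 and 21.3 CPM in shSet and 26.0 and 30.7 CPM in shNC libraries (log2 fold change -0.16, SE 0.19, adjusted p = 0.688). Tfam, which packages mitochondrial DNA and starts its transcription, had 68.2 and 79.9 CPM in shSet and 78.9 and 80.7 CPM in shNC libraries (-0.09, SE 0.14, adjusted p = 0.759). Both overlapped between the groups. Of 13 replication and packaging genes 0 were called, with a median of -0.10. Of 22 tested genes for RNA processing and stability 0 were called, with a median of 0.042. Lrpprc, which stabilises heavy-strand mRNAs, had 94.2 and 102 CPM in shSet libraries, against 123 and 122 CPM in shNC libraries, without overlap (-0.31, SE 0.13, adjusted p = 0.21). The rRNA and tRNA modification list (23 genes, median -0.0264), the aminoacyl-tRNA synthetases (23 genes, median -0.08) and the translation factors (12 genes, median -0.045) had 0 calls each. Among 10 regulators of mitochondrial biogenesis 0 were called, with a median of -0.13. Ppargc1a, a coactivator of mitochondrial biogenesis, had 3.31 and 3.78 CPM in shSet, against 5.56 and 7.38 CPM in shNC libraries, without overlap (-0.85, SE 0.25, adjusted p = 0.0844).

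**Figure D5:**
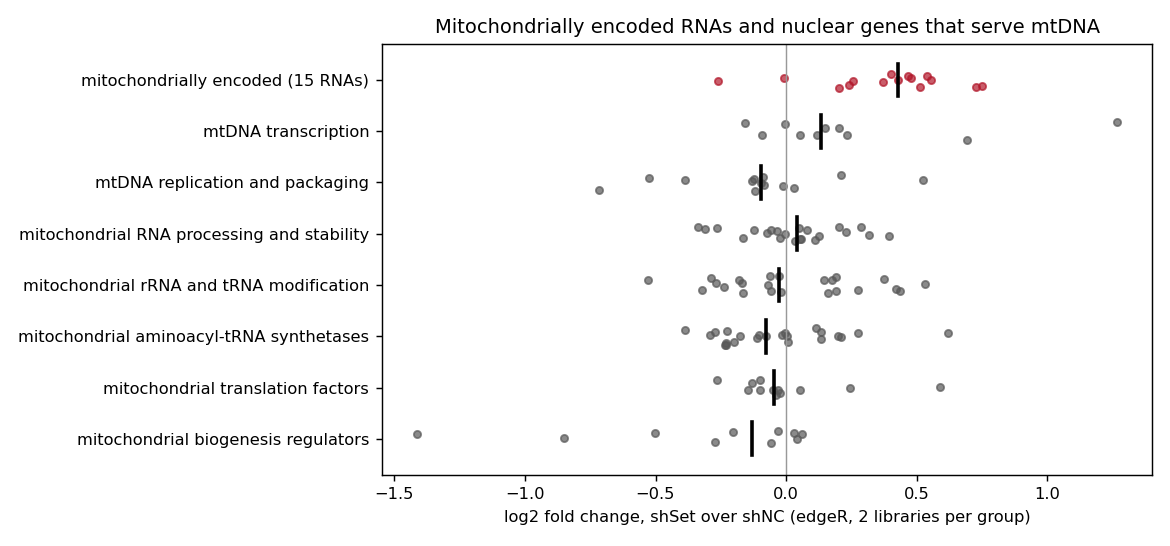
Log2 fold change of shSet over shNC for the 15 mitochondrially encoded RNAs and for each gene of 7 nuclear lists, with the vertical bar at the list's median. The medians of the nuclear lists lie between -0.13 and 0.13, and that of the mitochondrially encoded RNAs is 0.43.

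The lists that describe the make-up of the libraries were counted in the same way. Of 7 tested noncoding RNAs listed as signs of library make-up, Gm26917 rose, with 332 and 328 CPM in shSet and 184 and 221 CPM in shNC libraries (0.72, SE 0.14, adjusted p = 0.0144). The list median was -0.45. Rn7sk (-0.45), Snhg1 (-0.45) and Xist (-0.48) were lower in both shSet libraries without passing the test, and Malat1 (-0.57) and Gas5 (-0.52) overlapped. Neat1 (0.32) was higher in both shSet libraries, also without passing the test. Their part in the mitochondrial values was not tested. Of 7 tested hepatoma and hepatocyte markers, Alb rose (0.94, SE 0.14, adjusted p = 0.00563) and Hnf4a, a transcription factor of hepatocyte identity, fell by 0.60 (SE 0.13, adjusted p = 0.0302). Of 5 tested markers of other cell types, with a list median of 1.75, Col1a1, a fibroblast collagen, rose to 3.06 and 4.04 CPM in shSet, against 0.816 and 0.769 CPM in shNC libraries (adjusted p = 0.00652). Its partner Col1a2 had no counts in either shSet library. Cd68 (0.80, adjusted p = 0.0561), Pecam1 (1.88, adjusted p = 0.0593) and Krt19 (1.75, adjusted p = 0.118) were also above both shNC libraries in both shSet libraries without passing the test, and Sox9 was below (-0.37, adjusted p = 0.165). The part of these markers in the mitochondrial values was not tested.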

How the data were processed

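Per the labels' protocols, RNA was isolated with RNeasy Plus Mini and prepared for sequencing with NEBNext Ultra Directional, which keeps the strand. FastQC, STAR, RSEM, DESeq2, GRCm38 and mm10 are named, without versions, in the submitters' processing notes. Sources used here do not state the annotation release, the strand setting or any poly(A) selection or rRNA removal. Per the file headers, a gene's row gives an expected count, TPM and FPKM beside its full and effective lengths. The deposited expected counts are estimates that divide a read among features it matches, and the deposited TPM values divide by effective length. FPKM was left aside.

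After rounding the expected counts, genes were tested with edgeR (version 4.0.16, R 4.3.3) by its quasi-likelihood F-test with TMM scaling, filterByExpr and the group as the only term. All Ensembl genes were fitted, 12821 passed the filter, and p-values were adjusted over these by the Benjamini-Hochberg method (threshold 0.05). "Called" means past that threshold. The fit had 2 residual degrees of freedom. CPM was taken over the sum of all rows, position-named loci included. The script was tested on simulated data.

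Nuclear copies were found by matching GENCODE M21 transcripts (GRCm38) to the mitochondrial transcripts with BLAST 2.17.0 on the sense strand, keeping 90% identity over 80% of the copy, and named where they had at least 10 counts in any library. Sequences and coordinates are from that annotation. Every mt- row is accounted for. Nuclear list genes are named where called, and Polrmt, Tfam, Lrpprc and Ppargc1a in any case. The genes and lists were chosen with earlier results of these data known. The replicates of each group differed by more than counting noise, with a chi-square per gene of 23.5 for the shSet pair and 25.6 for the shNC pair. Alternatives covered scaling, tool, filter, unit, replicate pairing, copies and each library left out. DESeq2 1.42.0 and limma 3.58.1 served as alternatives.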

Additional observations from a re-analysis of the deposited data

How the results depend on the processing

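Over 17 alternative settings, the count of mitochondrially encoded genes called was 0 in 11, and above 0 where a library was left out or the libraries were paired. It was 1 (mt-Nd3, log2 fold change 0.87, adjusted p = 0.00783) with the replicate number as a block, called the replicate block, and 9 with the crossed pairing of the numbers, chosen after seeing the data. Without 1 library at a time it ranged from 1 to 9. Across the 12821 genes tested, the difference of shSet 1 from shSet 2 correlated at -0.244 with that of shNC 1 from shNC 2. With 2 pairs of libraries, this does not show whether the numbers pair the libraries. The cause of the calls in these settings was not tested. Over all genes the count was 764, 862 with the replicate block, 2340 with the crossed pairing, 740 to 1676 without 1 library, 334 with limma on log2(TPM + 1), 327 with limma on log2(TPM + 0.1), and 0 in edgeR with no filter on low counts, where 3378 genes had an unadjusted p under 0.05. Of 255 single-gene alternatives, 219 kept direction and side of the threshold, 25 passed it newly and 11 changed sign. Without 1 library at a time the log2 fold change ranged from -0.0562 (without shNC 2) to 0.52 for mt-Rnr1, from -0.0411 (without shNC 2; -0.0159 without shSet 2) to 0.58 for mt-Rnr2, and from -0.0478 (without shNC 2) to 0.63 for mt-Nd5. That of mt-Co2 ranged from -0.64 to 0.036 (without shSet 2), and was 0.18 with its copies. That of mt-Nd6 ranged from -0.29 (without shNC 2) to 0.34 (without shNC 1; 0.22 without shSet 1), and was 0.0052 with the replicate block, 0.0046 with the crossed pairing and 0.0018 with position-named loci in the fit. The log2 ratio of mt-Rnr2 to mt-Rnr1 in TPM was 0.0274, and -0.21 to 0.23 without 1 library, negative without shSet 2. The log2 ratio of mt-Nd6 to the heavy-strand genes was -0.60 in TPM, -0.48 in TPM without mt-Atp8, -0.47 in counts and, in TPM, -0.72 to -0.47 without 1 library. That of the mt-Co1 share of protein genes was -0.17 in TPM, -0.0525 in TPM without mt-Atp8 and -0.0061 in counts. For the mt- rows alone, the log2 ratio of their share of all counts was 0.48, and 0.12 to 0.76 without 1 library. With the copies added and all libraries kept it was 0.45. Depth limits the mt-Nd6 shares by the counting intervals given with them.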

Other observations

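Some nuclear genes of the lists came close to the threshold without passing it and were chosen here after their values were seen. Oxa1l, which inserts mitochondrially made proteins into the inner membrane, had 110 and 104 CPM in shSet libraries, against 79.2 and 63.8 CPM in shNC libraries (log2 fold change 0.59, adjusted p = 0.0532). Lars2, the mitochondrial leucyl-tRNA synthetase, had 695 and 495 CPM in shSet, against 354 and 427 CPM in shNC libraries (0.62, adjusted p = 0.0749). Nsun4, an rRNA methyltransferase of mitochondria, had 39.8 and 49.0 CPM in shSet, against 32.1 and 29.9 CPM in shNC libraries (0.53, adjusted p = 0.0959).

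Others were lower in both shSet libraries. Top1mt, the mitochondrial topoisomerase I, had 10.2 and 7.82 CPM in shSet, against 14.6 and 15.3 CPM in shNC libraries (-0.71, adjusted p = 0.0739). Atad3a, an inner-membrane ATPase linked to mitochondrial nucleoids, had 46.7 and 42.0 CPM in shSet, against 57.5 and 71.5 CPM in shNC libraries (-0.53, adjusted p = 0.0832). The coactivator Ppargc1b had 0.816 and 0.562 CPM in shSet, against 1.43 and 2.31 CPM in shNC libraries (-1.41, adjusted p = 0.0816), and the nuclear receptor Esrra had 46.5 and 40.8 CPM in shSet, against 55.0 and 70.0 CPM in shNC libraries (-0.50, adjusted p = 0.105).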
